A study of Mus musculus with 21 samples.

Results

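Small nuclear and small nucleolar RNAs were followed in RNA of mouse microglia, the resident macrophages of the brain, with and without apolipoprotein E (ApoE). The genes were taken by name from both deposited tables, as every gene symbol that starts with Snord, Snora, Scarna or Rnu and goes on with a digit. This gave 56 of 18718 genes, of which 31 encode C/D box small nucleolar RNAs (snoRNAs), 14 H/ACA box snoRNAs, 6 small Cajal body RNAs (scaRNAs) and 5 spliceosomal small nuclear RNAs (snRNAs). The set was selected on measured values, since the normalised counts of Rnu11 and Snord89 were among the largest rises in the knockout. The comparison of knockout with wild type is therefore a description of these genes and carries no test of them.

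Of these genes, 37 are among the 18079 genes of the genotype table, 47 are among the 13297 of the injection table, and 28 are in both. The genotype table holds 7 uninjected libraries labelled wild-type C57BL/6 female and 4 labelled ApoE knockout female (strain B6.129P2-Apoetm1Unc/J, in which Apoe was disrupted by gene targeting). A further 10 libraries, those of the injection table, carry the label of male knockouts of that strain, 5 injected with phosphate-buffered saline (PBS) and 5 with recombinant APOE protein (rAPOE) in PBS. All mice were 12 to 18 weeks old, and the injected ones were given the solution in the left side of the brain, 16 h before collection. Both injected groups thus lack endogenous ApoE, and the rAPOE libraries measure added protein in a knockout brain. The labels give neither the hemisphere of a library nor the mouse it came from. Replicate spread, and with it each p-value, may therefore be technical in part.

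The snRNAs form the core of the spliceosome. U11 (Rnu11) and U12 (Rnu12) belong to the minor spliceosome, in which U11 pairs with the 5′ splice site and U12 with the branch point of a small class of introns, while U1, U2 and U5 (Rnu1a1, Rnu2-10, Rnu5g) serve the major spliceosome. C/D box snoRNAs mostly guide 2′-O-methylation and H/ACA box snoRNAs pseudouridylation of ribosomal RNA, and scaRNAs guide the same changes on snRNAs. Most mouse snoRNAs are cut from introns of host genes, and the mature ends of both classes carry no long poly(A) tail, whereas the library kit used here primes on poly(A) and reads a tag towards the 3′ end.

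The sequences of several of the genes that the results turn on are shown so that the class motifs and the base composition of each RNA can be seen beside its values. They are GENCODE M21 transcripts on GRCm38, written 5′ to 3′ on the transcribed strand as DNA. In the snRNAs the capitals mark the binding site of the Sm protein ring.
Rnu11: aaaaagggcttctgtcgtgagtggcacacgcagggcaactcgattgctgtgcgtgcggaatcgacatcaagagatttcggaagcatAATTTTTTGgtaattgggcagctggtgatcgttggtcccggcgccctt
Rnu12: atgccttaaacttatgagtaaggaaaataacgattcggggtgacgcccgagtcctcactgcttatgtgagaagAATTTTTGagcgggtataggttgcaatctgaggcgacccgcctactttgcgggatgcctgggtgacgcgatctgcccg

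Rnu11 lies at chr4:132270080-132270213 on the minus strand, in no other gene of that strand, but it overlaps an exon of Gm28872 on the opposite strand. The strand setting of the authors' counting is not given in the sources used here, so reads of Rnu11 and of that antisense transcript cannot be told apart. Rnu12 lies at chr15:83149644-83149794 on the plus strand in no annotated gene. The letters AATTTTT, searched on the transcribed strand, occur in 3 of the 5 snRNA genes and in 6% of the 1383 snRNA transcripts of the annotation.

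In the C/D box snoRNAs the capitals mark box C (TGATGA) and box D (CTGA). Snord49b, Snord49a and Snord65 are shown together because they lie in 1 host gene.
Snord89: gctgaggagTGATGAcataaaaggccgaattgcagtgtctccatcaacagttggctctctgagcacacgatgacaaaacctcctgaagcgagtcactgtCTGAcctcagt
Snord49b: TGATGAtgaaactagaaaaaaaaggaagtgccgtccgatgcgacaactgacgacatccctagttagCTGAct
Snord49a: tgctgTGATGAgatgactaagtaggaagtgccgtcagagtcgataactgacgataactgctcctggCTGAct
Snord65: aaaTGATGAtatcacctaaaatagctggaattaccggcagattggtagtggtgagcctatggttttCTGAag
Snord118: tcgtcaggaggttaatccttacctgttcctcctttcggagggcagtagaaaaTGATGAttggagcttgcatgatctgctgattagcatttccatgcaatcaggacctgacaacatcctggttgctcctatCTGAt

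Snord89 lies at chr1:39548745-39548854 on the minus strand, in an intron of the noncoding gene Gm15832. Snord118, at chr11:69073427-69073561 on the plus strand, lies in no annotated gene. The Snord49b, Snord49a and Snord65 genes lie at chr11:62603079-62603150, chr11:62603450-62603521 and chr11:62604515-62604586, all on the plus strand in introns of 2410006H16Rik. Snord49b and Snord49a share 70.8% of their bases. TGATGA occurs in 26 of the 31 C/D box genes and in 26.1% of all 1507 snoRNA transcripts of the annotation, of both box classes. Snord49b holds a run of 8 A, the longest in the set, and a run of at least 6 A occurs in 3 of the 56 genes and in 2.79% of the annotated snoRNA transcripts.

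In the H/ACA box snoRNAs the capitals mark the ACA box, which lies 3 bases before the end.
Snora30: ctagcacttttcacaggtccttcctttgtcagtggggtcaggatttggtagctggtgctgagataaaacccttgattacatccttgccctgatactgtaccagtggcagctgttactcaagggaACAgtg
Snora73b: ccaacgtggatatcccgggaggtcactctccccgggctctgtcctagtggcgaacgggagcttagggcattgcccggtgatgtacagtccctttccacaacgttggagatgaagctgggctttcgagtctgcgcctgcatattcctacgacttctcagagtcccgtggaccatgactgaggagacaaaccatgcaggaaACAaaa

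Snora30 lies at chr7:127527874-127528003 on the plus strand inside Srcap and Gm42715, and Snora73b at chr4:132352322-132352526 on the minus strand inside Rcc1 and Snhg3 and opposite an exon of Gm17300. For a gene inside a host, reads of the small RNA and of unspliced host transcript cannot be told apart.

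Wild-type libraries held 2016972 to 3054976 reads over 13592 to 15248 detected genes, and knockout libraries 4247865 to 4969287 reads over 8117 to 10479 genes. The Apoe level averaged 12573 ± 5263 normalised counts (SD, n = 7) in the wild-type libraries and 8.32 ± 10.9 (SD, n = 4) in the knockout libraries, and wild-type library 8 stood apart at 1011. Both mitochondrial ribosomal RNAs, which carry only short tails, took 1.36% to 1.59% of reads in the wild-type libraries other than 8, 4.67% in library 8 and 0.647% to 0.886% in the knockout libraries. Summed choroid plexus markers fell from 24100 to 84100 normalised counts in the wild-type to 456 to 896 in the knockout libraries (9 of 9 lower), with Folr1 and Sostdc1 at 0 in each knockout library, and 6 of 10 microglial markers rose. PBS and rAPOE libraries held 704225 to 1347501 and 857059 to 1119059 reads, over 7601 to 11342 genes. Of the libraries labelled female, those of the wild type other than 8 held 11 to 36 reads of Y-linked genes and Xist at 1127 to 1279, whereas those of the knockout held 0 such reads and Xist at 1980 to 3292. Sex markers thus differed along with genotype, and their part in the values below was not tested. The PBS and rAPOE libraries numbered 5 are labelled male but held Xist (979 and 718) and no Y-linked reads.

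In the knockout libraries, the U11 snRNA and Snord89 were at higher levels than in any wild-type library. Rnu11 was 11.6-fold and Snord89 3.86-fold above the wild-type mean, while U12, the partner of U11 in the minor spliceosome, had a mean 0.725 times that of the wild type. Of the 37 genes, 5 had a mean of at least 10 normalised counts and entered the fit across all genes (Rnu11, Rnu12, Snord13, Snord49b and Snord89), and 2 of these passed an adjusted p of 0.05 in limma. In that comparison 25% of all 10401 genes tested passed, 5.14% upwards and 19.8% downwards. The knockout groups lay wholly above the wild type for Rnu11 and Snord89, as they did for 3.67% of all genes tested. These are the genes the set was picked for, and nothing is read from their count.

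Rnu11 was at 27.7, 8.45, 28.8, 15.1, 27.6, 12.2 and 10.8 normalised counts in wild-type libraries 1, 2, 3, 4, 6, 7 and 8, a mean of 18.7 ± 8.99 (SD, n = 7). It was at 243, 319, 89.0 and 212 in knockout libraries 1 to 4, a mean of 216 ± 95.8 (SD, n = 4). The lowest knockout library, number 3, was thus above the highest wild-type library at 28.8. The difference was 3.46 on the scale of log2(normalised count + 1), with a standard error (SE) of 0.48. It lay between 3.23 and 3.84 when single libraries were left out, and the mean was 10.8-fold higher without wild-type library 8. These levels rest on 6 to 36 reads in each wild-type and 206 to 717 reads in each knockout library.

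For the other minor spliceosome RNA the groups overlapped. Rnu12 ranged from 4.62 to 39.7 with a median of 8.16 in the wild-type libraries, with a mean of 17.8 ± 14.1 (SD, n = 7). Its knockout values were 41.4, 3.56, 0 and 6.65, a mean of 12.9 ± 19.2 (SD, n = 4), so that knockout library 1 was above and the other knockout libraries were within or below the wild-type range. The log2 difference was −1.22 (SE 0.93), in a level range, 10 to 50 normalised counts, where the median of all genes was −1.21. It was −0.35 without knockout library 3 and −2.15 without knockout library 1, −0.43 in edgeR, and it turned to 0.78 when the libraries were rescaled to equal quantiles. For a knockout library with no read, 3 reads would correspond to 1.3 to 1.7 normalised counts. Without wild-type library 8, the knockout mean of Rnu12 was 0.913 times that of the wild type.

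Rnu1a1 (U1) and Rnu2-10 (U2) of the major spliceosome had 24 and 4 reads over the wild-type libraries and none in the knockout libraries.

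Snord89 ranged from 12.6 to 62.5 with a median of 34.7 in the wild-type libraries, a mean of 38.0 ± 15.6 (SD, n = 7). The knockout libraries were at 184, 176, 96.0 and 130, a mean of 147 ± 41.4 (SD, n = 4), and all lay above the highest wild-type library. The log2 difference was 2.0 (SE 0.41), and between 1.77 and 2.19 when single libraries were left out. Wild-type library 8 was the lowest for this gene, and without it the fold was 3.47. The host Gm15832 averaged 1.24 in the wild-type libraries (0 to 4.08) and was at 0 in all knockout libraries, too low for a change of the host to be read.

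Snord13 (U13), which guides acetylation of 18S ribosomal RNA, overlapped between the groups. The wild-type libraries other than 8 lay between 29.2 and 45.2, and library 8 at 9.03. Knockout libraries 1 to 4 were at 11.4, 80.2, 0 and 32.8 normalised counts, on both sides of the wild-type range. Their mean was 31.1 ± 35.4 (SD, n = 4) against 35.6 ± 12.8 (SD, n = 7), a log2 difference of −1.30 (SE 0.95), where the median of all genes at that level was −1.21. The difference was −0.04 without knockout library 3, −2.16 without knockout library 2 and −0.16 in edgeR. The spread between knockout libraries was thus wider than the difference between the groups.

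Snord49b averaged 17.5 ± 10.9 (SD, n = 7) normalised counts in wild-type libraries and 25.6 ± 8.71 (SD, n = 4) in knockout libraries, with knockout values of 31.2, 33.8, 14.7 and 22.6 inside the wild-type range of 7.22 to 39.8. The log2 difference was 0.64 (SE 0.57), and 2.12 after rescaling to equal quantiles. Its host 2410006H16Rik was at 152 ± 38.8 (SD, n = 7) and 249 ± 108 (SD, n = 4), a difference of 0.65 (SE 0.29, limma adjusted p = 0.112). The neighbours in the same host gave few reads: Snord49a had 4 over the wild-type and 0 over the knockout libraries, and Snord65 had 22 and 50, of which 47 were in knockout library 2.

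**Figure D1:**
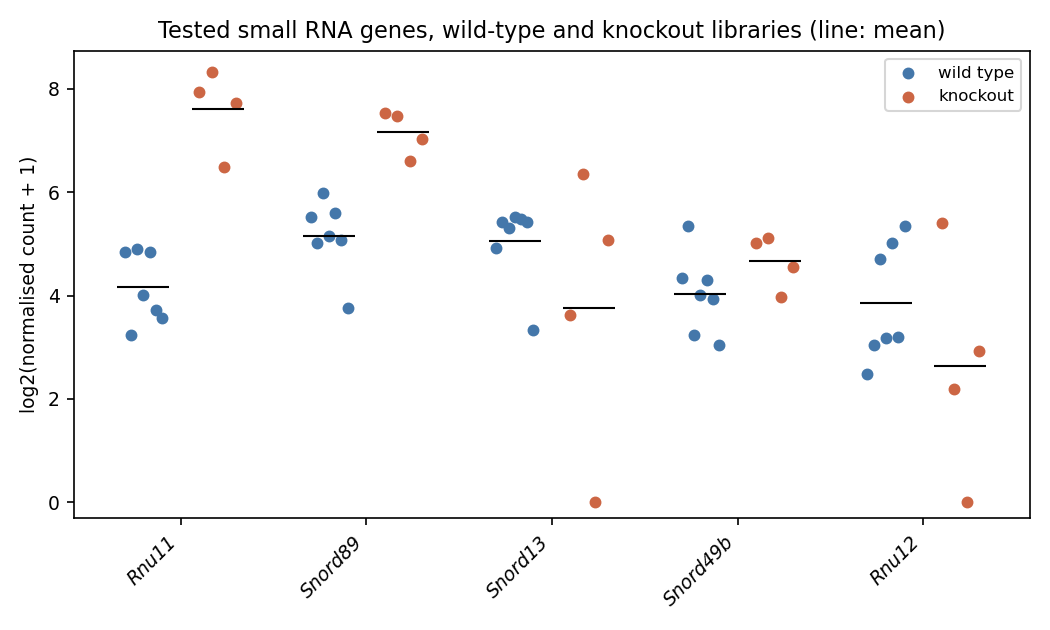
Each point is a library, on the y axis as log2(normalised count + 1), for the 5 genes tested in the genotype table, with the group mean as a line. All 4 knockout libraries lie above all 7 wild-type libraries for Rnu11 and Snord89, and the groups overlap for Snord13, Snord49b and Rnu12.

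The remaining 32 genes of the genotype table had between 1 and 170 reads over all 11 libraries, with a median of 21.5. Wild-type libraries held reads of 17 to 26 of the 37 genes and knockout libraries of 6 to 13, although the knockout libraries were deeper. Of the 37 genes, 16 were at 0 in every knockout library and none was at 0 in every wild-type library. Over all 18079 genes, 30.9% were at 0 in every knockout library and 0.603% in every wild-type library. The 16 genes had wild-type means of at most 4.15, and up to that mean 16 of 30 small RNA genes and 74.8% of all 5058 genes were at 0 in every knockout library. The knockout libraries had fewer detected genes over the whole table, as given above.

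Snord72, in an intron of the ribosomal protein gene Rpl37, had 27 reads in knockout library 1, 141 in library 3 and 0 in libraries 2 and 4, against at most 1 in a wild-type library. Snora73b, of the U17 family that takes part in cleavage of the ribosomal RNA precursor, had 94 reads in knockout library 3 and 0 in the other knockout libraries, against 0 to 4 in the wild-type libraries. Snord111 had 42 reads in knockout library 4 alone of its group, and Snord55 48 reads in knockout library 2 alone. Each of these means rests on 1 or 2 libraries. These genes, and Snora30, Snord17, Snord65, Snord104 and Scarna2, are named because at least 1 library held 30 reads or more. Only knockout libraries, the deeper ones, reached that number for them. Their high knockout reads thus follow from the naming rule, and nothing is read from them as a group. Snora30 was found in 3 of 4 knockout libraries, at 9.65, 14.2, 0 and 16.8 normalised counts, against 0 to 7.21 in the wild-type libraries. Snord17 was at 8.83 ± 7.62 (SD, n = 4) in the knockout and 6.83 ± 5.73 (SD, n = 7) in the wild-type libraries. Its host Snx5, a sorting nexin, averaged 1345 ± 65.3 (SD, n = 7) in the wild type and 2144 ± 166 (SD, n = 4) in the knockout, a rise of 0.67 in log2 units (SE 0.10, limma adjusted p = 0.000313).

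Snord104 had 32 reads in knockout library 4 and 0 in the others, against 0 to 18 in the wild-type libraries. Scarna2, which lies in no other gene of its strand, had 38 reads in its highest knockout library and 50 over that group, against 20 over the wild-type libraries. The U3 genes Rnu3a, Rnu3b1 and Rnu3b3, whose RNA takes part in the first cleavages of the ribosomal RNA precursor, summed to 1.81 to 18.1 normalised counts in the wild-type and to 10.8, 11.6, 0 and 19.9 in the knockout libraries. Rnu3b1, Rnu3b3 and Rnu3b4 are identical in sequence and share 85.2% with Rnu3a, so the split of reads among them is uncertain.

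**Figure D2:**
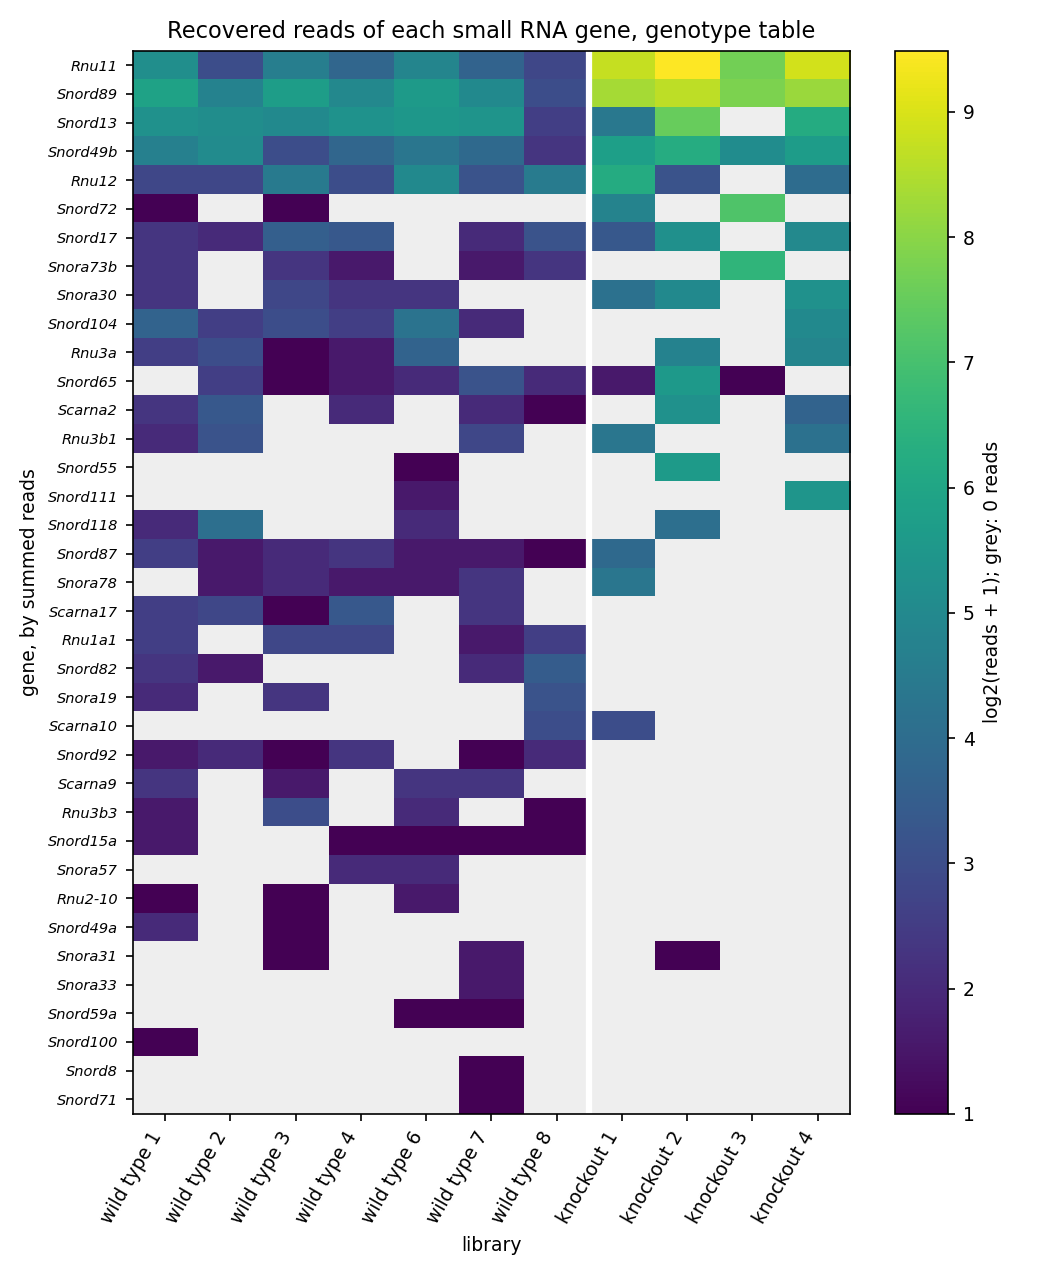
Colour gives the recovered reads of each of the 37 genes as log2(reads + 1) in each library of the genotype table, with 0 reads in grey. The wild-type columns hold reads of 17 to 26 genes and the knockout columns of 6 to 13.

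Summed over the 37 genes, small RNA reads made up 0.781 ± 0.165 (SD, n = 7) of 10000 gene reads in the wild-type libraries, from 0.476 to 0.966. The share was 2.39, 3.26, 1.46 and 2.26 in knockout libraries 1 to 4, a mean of 2.34 ± 0.737 (SD, n = 4), with no overlap. Rnu11 and Snord89 together made up 61.3% to 74.2% of small RNA reads in the knockout libraries. Without them the share was 0.551 ± 0.096 (SD, n = 7) in the wild-type and 0.723 ± 0.204 (SD, n = 4) in the knockout libraries, and the groups overlapped (0.412 to 0.694 and 0.567 to 1.02). The ratio of the group means thus went from 3.0 for all 37 genes to 1.31 without those 2. The share of mitochondrial ribosomal RNA moved the opposite way, as given above, and its part in these values was not tested. In bulk RNA, fewer cells of a type and less RNA per cell cannot be told apart.

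**Figure D3:**
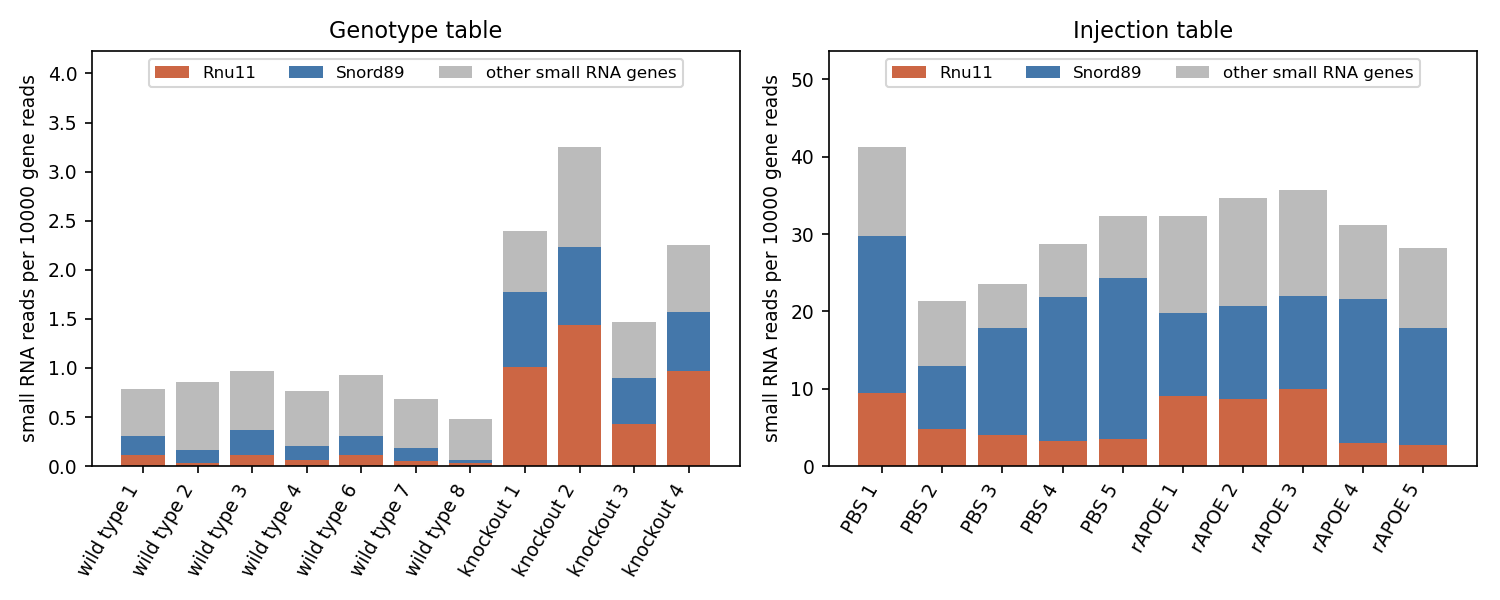
Bars give reads of the small RNA genes per 10000 gene reads in each library, split into Rnu11, Snord89 and the rest. Each table has a separate scale because the shares of the injection table are far higher. In the knockout libraries of the genotype table the bars reach 1.46 to 3.26 against 0.476 to 0.966 in the wild type, and most of the gap lies in Rnu11 and Snord89.

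Genes that make, modify or bind these RNAs mostly did not pass in the knockout comparison, and most of those that passed fell, against a median log2 difference of −0.45 over all genes tested, of which 25% passed and 19.8% passed downwards. For all genes with means from 10 to 50 the median was −1.21. Of 19 tested proteins of the snoRNA particles and their assembly, 5 fell and none rose (median −1.0). Dkc1, the pseudouridine synthase of H/ACA particles, averaged 168 ± 13.3 (SD, n = 7) in the wild type and 66.2 ± 34.1 (SD, n = 4) in the knockout and fell by 1.48 (SE 0.29, limma adjusted p = 0.0019). Nop58, a core protein of C/D particles, fell by 1.0 (SE 0.23, adjusted p = 0.00543). Both also passed in edgeR, whereas Ruvbl1 and Znhit6, which help to assemble C/D particles, did not (adjusted p = 0.523 and 0.218), and edgeR called 2 of the 19 lower, as did the fit after quantile rescaling, with 1 higher.

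Of 12 tested proteins of the minor spliceosome, in which U11 and U12 act, 2 fell and none rose (median −0.67). These were Zcrb1, a protein of the U11/U12 particle, by 1.96 (SE 0.56, limma adjusted p = 0.0205), and Ybx1, by 0.82 (SE 0.24, adjusted p = 0.0216), and neither passed in edgeR (adjusted p = 0.133 and 0.0785). The list's summed level was 1400 to 1600 normalised counts in the wild-type and 961 to 1240 in the knockout libraries. Of 27 genes for transcription and 3′ end formation of snRNAs, which include the Integrator complex, none passed in either direction in limma or edgeR, and 2 were called higher after quantile rescaling (median −0.54).

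Of 36 tested Sm, Lsm and other snRNP proteins, 2 rose and 3 fell (median −0.12). Ssb, the La protein that binds the 3′ ends of new small RNAs, fell by 0.78 (SE 0.16, limma adjusted p = 0.00264). Of the Sm ring proteins, Snrpb rose by 0.62 (SE 0.19, adjusted p = 0.029) and Snrpd3 fell by 0.99 (SE 0.29, adjusted p = 0.0233). Snrpb lost the call without wild-type library 1 or 4 or knockout library 1, 2 or 4, and Snrpd3 without wild-type library 2 or 3 or knockout library 3 or 4, with adjusted p up to 0.0668 and 0.0649. Of 20 tested genes for trimming and decay of snoRNAs, 2 fell and none rose, with a median of 0.04, above 0: Skiv2l2, the helicase of the nuclear exosome, by 1.41 (SE 0.26, adjusted p = 0.00108), and Zcchc7, by 1.33 (SE 0.39, adjusted p = 0.0232), the latter not without knockout library 1 (adjusted p = 0.0618).

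Of 13 tested noncoding host transcripts of snoRNAs, 2 fell and none rose (median −0.34). Snhg11 and Snhg14 were at 69.2 ± 31 and 22.7 ± 14.8 (SD, n = 7) in the wild-type and at 0 in all knockout libraries, at least 195-fold and 64.1-fold lower at a floor of 3 reads over the group. Snhg14 did not pass after quantile rescaling (−1.14, limma adjusted p = 0.285). The neuronal marker Map2 was at 0 in the same libraries, against 171 ± 83.5 (SD, n = 7) in the wild type, and 8 of 10 neuronal markers fell, with a summed level of 66.8 to 1180 in the wild-type and 0 to 79.1 in the knockout libraries. The part of neuronal RNA in the fall of these hosts was not tested.

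Of 8 other tested structural RNAs, most without a long tail, 1 rose and 3 fell (median 0.29), and 4 rose after quantile rescaling. Rn7sk, the 7SK RNA that holds the elongation factor P-TEFb inactive and has many copies that make its count uncertain, was at 32.4 to 65.1 normalised counts in the wild-type and at 153, 47.6, 192 and 115 in the knockout libraries, so that library 2 stayed within the wild-type range. It rose by 1.27 (SE 0.39, limma adjusted p = 0.0287), lost the call without wild-type library 1, 2 or 3 or knockout library 1, 3 or 4 (adjusted p up to 0.0774), and passed in edgeR (adjusted p = 0.0147). The mitochondrial ribosomal RNAs mt-Rnr1 and mt-Rnr2 fell by 1.86 (SE 0.47, limma adjusted p = 0.0102) and 1.21 (SE 0.34, adjusted p = 0.0188). Neat1, which has a tailed and an untailed form that were not separated here, fell by 1.46 (SE 0.31, adjusted p = 0.00341). Of 8 tested replication-dependent histone genes (median −1.04), whose messages end in a stem-loop, Hist3h2a rose by 1.18 (SE 0.25, limma adjusted p = 0.00291), and 2 fell in limma and none in edgeR.

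The comparison of rAPOE with PBS was not used to pick the set, and no small RNA gene passed in it. Of the 47 genes, 13 had a mean of at least 10, and none of the 13 passed in limma, edgeR or DESeq2, where 0.481% of all 7066 genes tested passed in limma, 0.368% upwards and 0.113% downwards. At an unadjusted p under 0.05, each of the 3 tools had 1 of the 13 genes. Of all 7066 genes, 792 were under it in limma, 575 in edgeR and 708 in DESeq2, so nothing is read from that 1. Of the 13 differences in limma, 12 were above 0 and 1 below, with a median of 0.83 against −0.01 over all genes tested, and the groups overlapped for each of the 13. The median of the 13 was smaller in edgeR (0.57, against −0.02 over all genes) and in DESeq2 (0.60, against −0.01). Over all genes tested, the groups were separate for 1.59% upwards and 1.54% downwards. The 8 genes with means under 100 had wide intervals, so at this depth a change of several fold in either direction was not detectable for some of them.

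Rnu11 was at 1060, 483, 456, 260 and 292 normalised counts in PBS libraries 1 to 5 and at 913, 986, 961, 250 and 227 in rAPOE libraries 1 to 5. In both groups the libraries numbered 4 and 5 were the lowest, and rAPOE libraries 1 to 3 lay between PBS library 1 and the rest. The difference was 0.29 (SE 0.42, 95% interval −0.58 to 1.17, limma adjusted p = 0.84), and it turned to −0.21 in the libraries numbered 4 and 5 alone. Rnu12 was at 281, 118, 136, 87.6 and 99.7 in the PBS and at 285, 252, 249, 115 and 94 in the rAPOE libraries, with libraries 4 and 5 again the lowest of each group. Its difference was 0.46 (SE 0.38, 95% interval −0.33 to 1.24, adjusted p = 0.694).

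Of the major spliceosome RNAs, Rnu2-10 (U2) was at 0, 13.9, 6.4, 0 and 12.2 in the PBS and at 35.4, 32.3, 14.1, 11.6 and 11.7 in the rAPOE libraries, on 0 to 32 reads a library. This was the largest estimate among the 13, at 2.19 (SE 1.08, 95% interval −0.05 to 4.44, limma adjusted p = 0.461), and PBS libraries 2 and 5 overlapped the rAPOE group. Rnu5g (U5) was at 17.7 ± 26.6 (SD, n = 5) and 30.4 ± 29.1 (SD, n = 5), with the PBS mean resting on library 1 at 64.5, and Rnu1a1 was under the level tested.

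Snord89 was at 2252, 815, 1558, 1522 and 1756 in the PBS and at 1079, 1357, 1174, 1553 and 1251 in the rAPOE libraries. Its rAPOE values all lay between PBS libraries 2 and 3, a difference of −0.24 (SE 0.24, 95% interval −0.74 to 0.27, limma adjusted p = 0.763), the only negative estimate of the 13. An increase above 0.27 on the log2 scale thus lay outside the interval.

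Snord13 was the only 1 of the 13 genes with an unadjusted p under 0.05 in limma, as were 792 of all 7066 genes tested. It was at 259, 302, 166, 90.2 and 139 in the PBS and at 441, 354, 464, 195 and 208 in the rAPOE libraries, 191 ± 87.2 and 332 ± 126 (SD, n = 5 each). In each group libraries 4 and 5 were the lowest, and rAPOE libraries 4 and 5 lay within the PBS range. Libraries 1 to 3 were at 354 to 464 after rAPOE and 166 to 302 after PBS, and libraries 4 and 5 at 195 to 208 and 90.2 to 139. This split was made after seeing the values, and the share of all genes that separate in the same way was not counted. In limma fits of either set alone, 0 of the 13 genes passed. With all libraries, the Snord13 difference of 0.83 (SE 0.34, 95% interval 0.12 to 1.54) did not pass over all genes (limma adjusted p = 0.371).

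Snord49b was at 219 ± 104 (SD, n = 5) after PBS and 233 ± 78.8 (SD, n = 5) after rAPOE, a difference of 0.16 (SE 0.35, limma adjusted p = 0.905), which turned to −0.14 without PBS library 3. Its host 2410006H16Rik was at 93.5 ± 44.8 and 89.6 ± 26.9 (SD, n = 5 each), a difference of 0.08 (SE 0.43). Snord65 in the same host had 40 reads over the PBS and 33 over the rAPOE libraries, 27 of them in rAPOE library 5. Snord118 (U8), which takes part in cleavage of the ribosomal RNA precursor, was at 103, 0, 62.4, 45.4 and 58.6 in the PBS and at 103, 125, 32.1, 44.2 and 82.4 in the rAPOE libraries. Its difference of 1.30 (SE 0.90, adjusted p = 0.619) rested on PBS library 2, the only library at 0, and fell to 0.09 when that library was left out.

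The U3 genes Rnu3a, Rnu3b1, Rnu3b3 and Rnu3b4 summed to 7.45, 34.1, 56, 15.1 and 18 normalised counts in PBS libraries 1 to 5. The sums in rAPOE libraries 1 to 5 were 2.36, 102, 109, 43.5 and 106. Of rAPOE libraries 1 to 5, number 1 was below every PBS library, 4 was within their range, and 2, 3 and 5 were above it. Of these genes only Rnu3b3 reached the level tested, with a difference of 1.35 (SE 1.04, limma adjusted p = 0.671), which was 0.47 without PBS library 1 and 2.13 without rAPOE library 1. Snord104 was at 9.78 ± 8.51 and 14.6 ± 8.88 (SD, n = 5 each), a difference of 0.63 (SE 0.92).

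Among the H/ACA box snoRNAs, Snora30 was at 38.1, 0, 30.4, 36.9 and 30.2 in the PBS and at 33, 69.6, 0, 58.2 and 44.3 in the rAPOE libraries, with a library at 0 in each group. The difference was 0.43 (SE 1.16, limma adjusted p = 0.928), and −0.59 without PBS library 2. Snora68 was at 3.24 ± 3.49 and 17 ± 11.5 (SD, n = 5 each), a difference of 1.98 (SE 1.23, adjusted p = 0.58), with rAPOE library 3 at 0. Snora73b was at 8.35 ± 12.7 and 23.2 ± 29.1 (SD, n = 5 each), and its highest library, rAPOE 2, was at 71.6.

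The other 34 genes had 4 to 113 reads over the 10 libraries, with a median of 28.5. Scarna13 had 35 reads in PBS library 5 and 46 in rAPOE library 2 and 0 in all others. Scarna17 had 77 reads over the PBS and 11 over the rAPOE libraries, Scarna9 43 and 7, and Snord67 39 and 11. Snord83b, in an intron of Rpl3, had 8 and 72 reads, Snora41, in Eef1b2, 0 and 44, and Snord87, in Snhg6, 66 and 40. The groups overlapped for all of these.

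**Figure D4:**
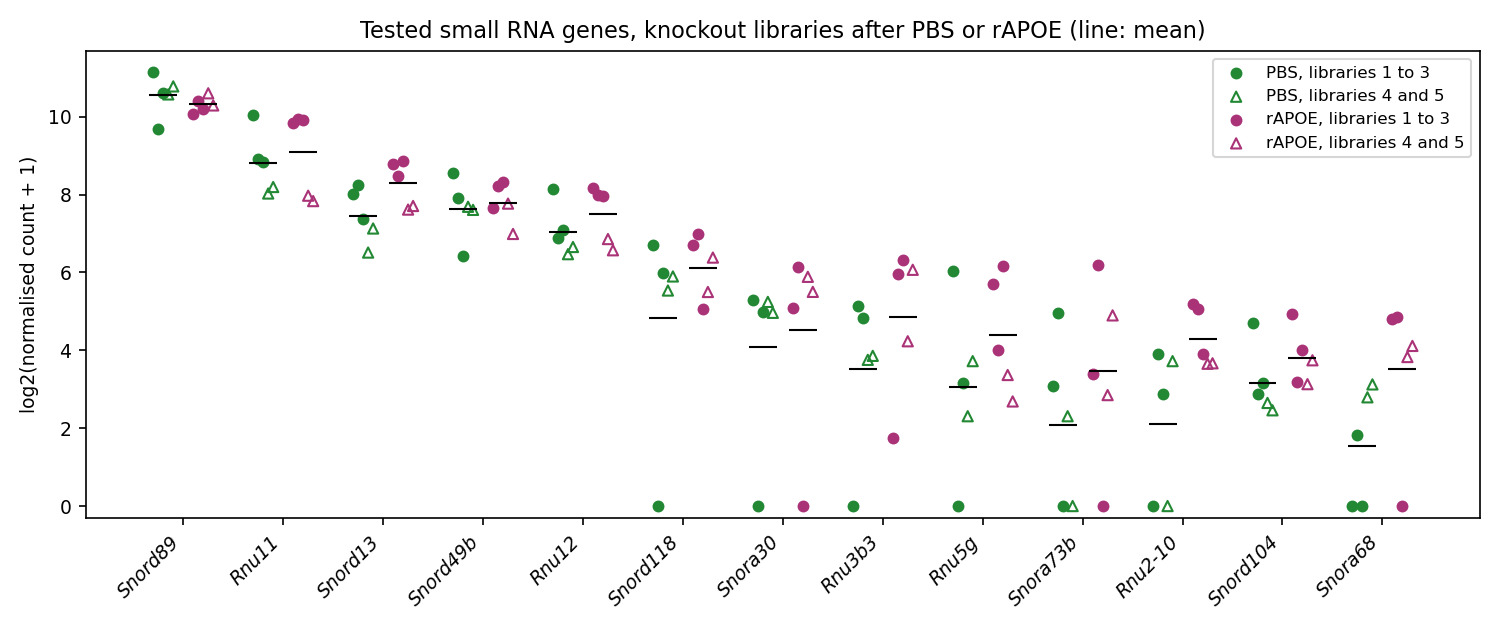
Each point is a library, on the y axis as log2(normalised count + 1), for the 13 genes tested in the injection table, with filled circles for libraries 1 to 3, open triangles for 4 and 5, and the group mean as a line. PBS and rAPOE overlap for every gene, and for Rnu11, Snord13 and Rnu12 the triangles lie below the circles in both groups.

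Rnu11, Rnu12 and Snord13 were lower in libraries 4 and 5 than in libraries 1 to 3 of both groups, as were 2.48% of all 7066 genes tested, and none of the 13 was higher there in both groups, as were 2.97%. The libraries numbered 4 and 5 held 10025 to 11342 detected genes and 10.8% to 11.8% mitochondrial ribosomal RNA, against 7601 to 8837 and 12.7% to 20.1% in libraries 1 to 3. The labels give no batch, and the part of these values in the 3 genes was not tested. Summed over the 47 genes, small RNA reads made up 29.4 ± 7.89 (SD, n = 5) of 10000 gene reads after PBS and 32.4 ± 3.01 (SD, n = 5) after rAPOE, with overlap. Without Rnu11 and Snord89 the share was 8.1 ± 2.23 (SD, n = 5), from 5.64 to 11.6, and 12 ± 1.94 (SD, n = 5), from 9.62 to 13.9. The uninjected knockout libraries of the genotype table were at 2.34 ± 0.737 (SD, n = 4) over their 37 genes, far below both injected knockout groups. Sex label, injection and set of libraries differ together there, and their parts cannot be told apart.

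**Figure D5:**
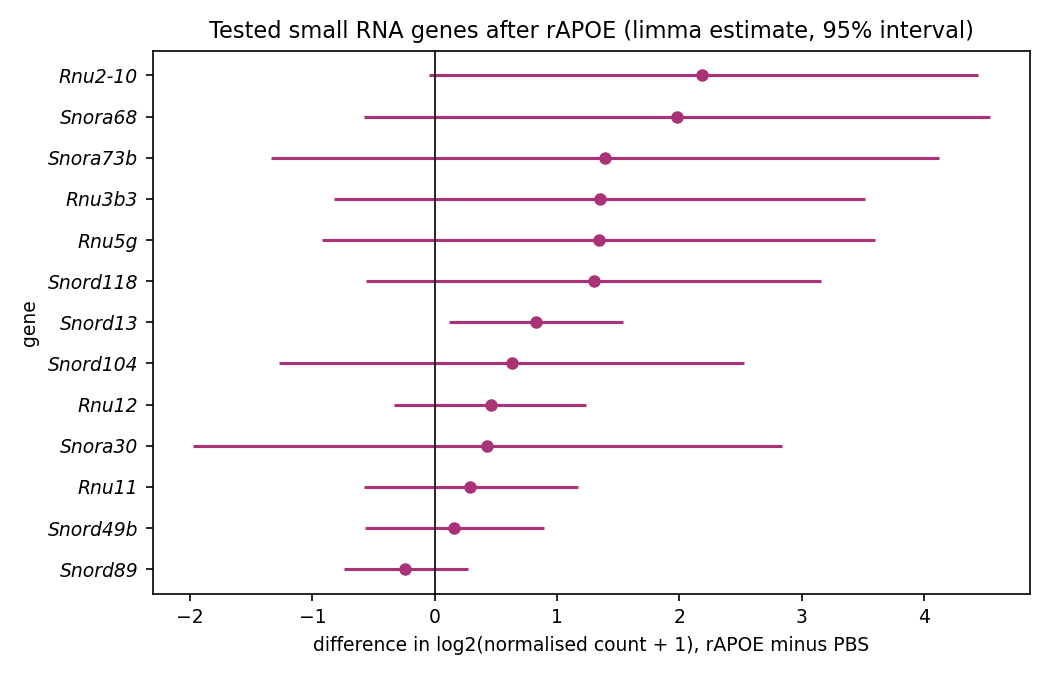
Points give the limma estimate of rAPOE minus PBS on the scale of log2(normalised count + 1) for the 13 tested genes, and lines its 95% interval. All intervals include 0 except that of Snord13, from 0.12 to 1.54 before adjustment, and the estimates run from −0.24 for Snord89 to 2.19 for Rnu2-10.

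None of the genes that make, modify or bind these RNAs passed between rAPOE and PBS in limma or edgeR. This covers 11 tested snoRNA particle proteins, 8 of the minor spliceosome, 32 Sm and snRNP proteins, 20 of snRNA transcription, 20 of snoRNA trimming, 12 host transcripts, 10 other structural RNAs and 8 histone genes, and DESeq2 called 1 of the 11 higher. The snoRNA particle proteins, summed over all 20 with values and not only the 11 tested, were at 262 to 480 normalised counts after PBS and 589 to 811 after rAPOE. These sums did not overlap, whereas the sums of all other lists did, and no sum was tested. The median difference was 0.92 over the 11 tested. Of the microglial markers 3 of 10 fell in limma (P2ry12, Siglech and Gpr34) and none in edgeR (adjusted p = 0.0651, 0.0552 and 0.148). All 3 passed in DESeq2 (adjusted p = 0.000889, 0.000882 and 0.00887) and in limma after quantile rescaling. P2ry12 fell by 1.77 (SE 0.31, limma adjusted p = 0.00663), and Siglech and Gpr34 lost the call in 6 and 7 of the 10 fits that left out a single library. Rn7sk was at 228, 58.2, 170, 137 and 110 in the PBS and at 91.9, 99.9, 258, 78.4 and 59.1 in the rAPOE libraries, and the groups overlapped.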

How the data were processed

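Total RNA of microglia was made into QuantSeq 3′ FWD libraries and read on an Illumina MiniSeq, per the labels' protocols. GRCm38.p3, HTSeq, DESeq2, Picard 1.8.4 and R 3.2.3 are named in the submitters' processing notes, with no role. The aligner, annotation and strand setting were not given in the sources used here. Per gene, the authors deposited a normalised signal, called the normalised count in the text. Each table was normalised apart, so tests and normalised counts stay within a table. In each library 100% of values above 0 were within 0.01 of whole multiples of a fixed step, and value divided by step gave the reads. Reads carry no molecular identifiers, so floors cover counting error only. From the genotype table, 22 entries with spreadsheet dates for names (0.0966% of the summed values) and 120 at 0 in all libraries were left out.

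Log2(normalised count + 1) was fitted with limma 3.58.1 (intensity trend, R 4.3.3) over genes with a mean of at least 10, and p-values were Benjamini-Hochberg adjusted over all genes tested (threshold 0.05). The added 1 pulls changes of low genes towards 0, but libraries at 0 can make a difference larger than the ratio of means. Snord13 had −1.30 in the knockout comparison at a mean 0.873 times that of the wild type. The median over all genes there was −0.45 in limma and −0.17 in edgeR. The scripts were tested on simulated counts. Alternatives were edgeR 4.0.16 and DESeq2 1.42.0 on recovered reads, pseudocounts of 0.5 and 5, other filters and scalings, single libraries left out and a replicate block. Named were each tested small RNA gene, those with at least 30 reads in 1 library, their hosts, and up to 4 passing genes per list. Positions and sequences come from GENCODE M21. The small RNA genes and the gene lists were chosen with earlier results of these data known.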

Additional observations from a re-analysis of the deposited data

Results flagged for a closer look

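In 17 of 73 groups of 4, 5 or 7 libraries, a single library stood far from the others relative to the group's range. Normally distributed values would give about 1 in 20 groups, but any gene above 0 in 1 library alone meets the rule whatever its value. Some genes were also named for at least 30 reads in 1 library, so the 17 cannot be set against that share. In the knockout group these were Snora73b in library 3 (40.6 normalised counts), Snord104 in library 4 (14.2), Snord111 in library 4 (18.6) and Snord55 in library 2 (21.4), each with the other knockout libraries at 0. In the wild-type group, Snord111 (1.97) and Snord55 (0.986) were above 0 in library 6 alone, and Snord13 was low in library 8 (9.03), the library that also had the lowest Apoe.

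After PBS, Rnu3b3 was at 0 in library 1, Snora30 and Snord118 were at 0 in library 2, and Scarna13 was at 22.5 in library 5 alone. After rAPOE, Rnu3a was at 0 in library 1, Snora30 and Snora68 were at 0 in library 3, and Scarna13 in library 2 (46.4), Scarna9 in library 4 (5.43) and Snord67 in library 5 (8.55) were above 0 in that library alone.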

How the results depend on the processing

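No small RNA gene passed after rAPOE under the alternatives run. In the knockout comparison, whose calls chose the set, the 2 calls say nothing of stability, and quantile rescaling gave 3, with Snord49b added (a difference of 2.12). Rnu12 turned to 0.78 there. That rescaling also moved the median of all genes from −0.45 to 0.09 and the split of calls from 535 higher and 2061 lower to 920 and 1027. Over all genes, calls in the knockout comparison went from 2596 (25% of 10401 genes) to 1658 (15.9%) with edgeR. At a mean of at least 50 they were 1289, of only 5714 genes tested (22.6%). With single libraries left out, calls ran from 2083 without wild-type library 1 to 3141 without wild-type library 8. After rAPOE, calls over all genes went from 34 to 114 with DESeq2, 64 at a pseudocount of 5 and 67 with quantile rescaling. They were 16 to 74 when single libraries were left out (the highest without rAPOE library 3 and the lowest without rAPOE library 5) and 11 without both libraries numbered 5. In alternatives chosen after seeing the data they were 6 in libraries 1 to 3 and 125 in libraries 4 and 5. Differences that changed sign after rAPOE were Rnu11 (−0.21) and Snord49b (−0.27) in libraries 4 and 5, Snora30 (−0.59) without PBS library 2 and Snord49b (−0.14) without PBS library 3, and with single libraries left out these ran up to 1.56 and 0.39. The ratio of summed small RNA reads after rAPOE went from 1.10 to 1.43 without Snord89 and, chosen after seeing the data, 1.49 without Rnu11 and Snord89, and that of the knockout from 3.0 to 1.31. The cause was not tested.

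Libraries that share a replicate number did not deviate together in every pair, and not every library correlated best with its own number (r of same-numbered libraries from −0.0295 to 0.02 in the genotype and −0.00418 to 0.185 in the injection table). With the replicate block, 2 small RNA genes and 1933 genes passed in the knockout comparison (2192 in the same libraries without the block), and 0 and 52 after rAPOE. Depth limits the genes outside the 5 and 13 tested, most of which rest on under 30 reads.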
